A study of Homo sapiens with 6 samples.

Results

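Of the 61806 genes counted in NB4 cells, a chosen list of 8 that encode feedback inhibitors of the ERK pathway is described here. They were taken by symbol as the dual-specificity phosphatases DUSP2, DUSP4, DUSP5 and DUSP6, the Sprouty genes SPRY2 and SPRY4, and the Spred genes SPRED1 and SPRED2. All 8 symbols matched 1 Ensembl identifier each, and all 8 genes passed the filter on low counts that left 19485 genes for testing. NB4 is an established human line of acute promyelocytic leukaemia. The tested group was transduced with a lentivirus to overexpress CD69, a leukocyte surface lectin that appears early after activation (3 libraries), and the controls are described as matched vector cells in the series' design text and as wild type in the sample labels (3 libraries). No drug was given, cells were taken in logarithmic growth, and all libraries carry the same batch label. The design text calls the libraries biological replicates, but nothing in the sources used here says whether those of a group came from separate transductions, so each group may be 1 transduced population and p-values measure only the spread between these libraries.

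ERK is the last kinase of the chain that runs from growth factor receptors through RAS, RAF and MEK. Active ERK switches on transcription of its own inhibitors. Phosphatases of the DUSP family remove phosphate from ERK itself, mostly in the nucleus for DUSP2, DUSP4 and DUSP5 and in the cytoplasm for DUSP6. Sprouty and Spred proteins act higher up, between the receptor and RAF. In many cell types the transcripts of these genes are used as a readout of ERK output, although each also has other inputs. Phosphorylated ERK was not measured here.

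Total counts were 55280365, 56239830 and 51543550 in CD69-overexpressing replicates 1, 2 and 3, against 55716218, 56221245 and 57463020 in the controls. CD69 was 97.7 ± 1.75 CPM (counts scaled to library size with TMM factors, SD, n = 3) in overexpressing cells and 77.6 ± 6.14 CPM in controls. This is 0.33 higher on the log2 scale (SE 0.07, quasi-likelihood test of edgeR, adjusted p = 0.0153, and 0.0618 without overexpressing replicate 2). Counts per gene do not separate the introduced sequence from the cells' own transcript. The promyelocyte markers ELANE, PRTN3, AZU1 and CTSG were above 100 CPM in every library, while MPO lay between 0.52 and 1.45 CPM. The sum of 10 promyelocyte markers was 2554 to 3025 CPM in overexpressing cells, against 1666 to 2023 CPM in controls, with ELANE, PRTN3 and AZU1 higher and SPI1 and MS4A3 lower. Overexpressing replicates 2 and 3 stood apart from replicate 1 in markers of other cell types. The sum of 14 B cell markers was 52.7, 256 and 269 CPM in overexpressing replicates 1, 2 and 3, against 67.3 to 74.5 CPM in controls, with VPREB1 at 0 in every library. The sum of 10 fibroblast and epithelial markers was 131, 47.7 and 45.2 CPM in the same order, against 127 to 141 CPM in controls. The keratins KRT8, KRT18 and KRT19 made up most of this sum in every library. In the same order, KRT8 was 56.9, 14.3 and 11.3 CPM and COL1A2 12.8, 4.90 and 3.00 CPM. COL1A1 (9.33, 8.16 and 4.94 CPM) and CDH1 (1.23, 1.81 and 2.25 CPM) did not follow the split. Of 8 T and NK cell markers, CD3E and CD3G were at 0 in every library, and the list's sum of 99.9 to 119 CPM in overexpressing cells, against 54.6 to 73.6 CPM in controls, was almost wholly NKG7. Control replicate 3 also differed from its group, with a chi-square per degree of freedom (counts divided by 4) of 14.5 and 15.8 against the other controls, which differed from each other by 2.51.

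Of the 8 genes, 4 fell in CD69-overexpressing cells and none passed the test as higher (edgeR quasi-likelihood test, Benjamini-Hochberg adjusted over all 19485 genes, threshold 0.05). The genes that fell were DUSP4, DUSP5, SPRY4 and SPRED1, 1 or more from each family. Over all tested genes, 9.94% were called lower, 14.2% higher and 24.1% either way. In 4 of the 8 genes every overexpressing library lay below every control, as in 19.3% of tested genes. A fall of at least 2-fold was called for DUSP4, SPRY4 and SPRED1, 3 of the 8, and for 1.93% of tested genes. The median log2 fold change was -0.35 over the 8 genes and 0.01 over all tested genes. At an unadjusted p under 0.05, 1 gene, DUSP2, was higher, and DESeq2 also called it higher. The 8 transcripts together summed to 257, 266 and 242 CPM in overexpressing replicates 1, 2 and 3, against 332, 333 and 296 CPM in control replicates 1, 2 and 3. In bulk RNA a lower level in every cell and a loss of expressing cells cannot be told apart.

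**Figure D1:**
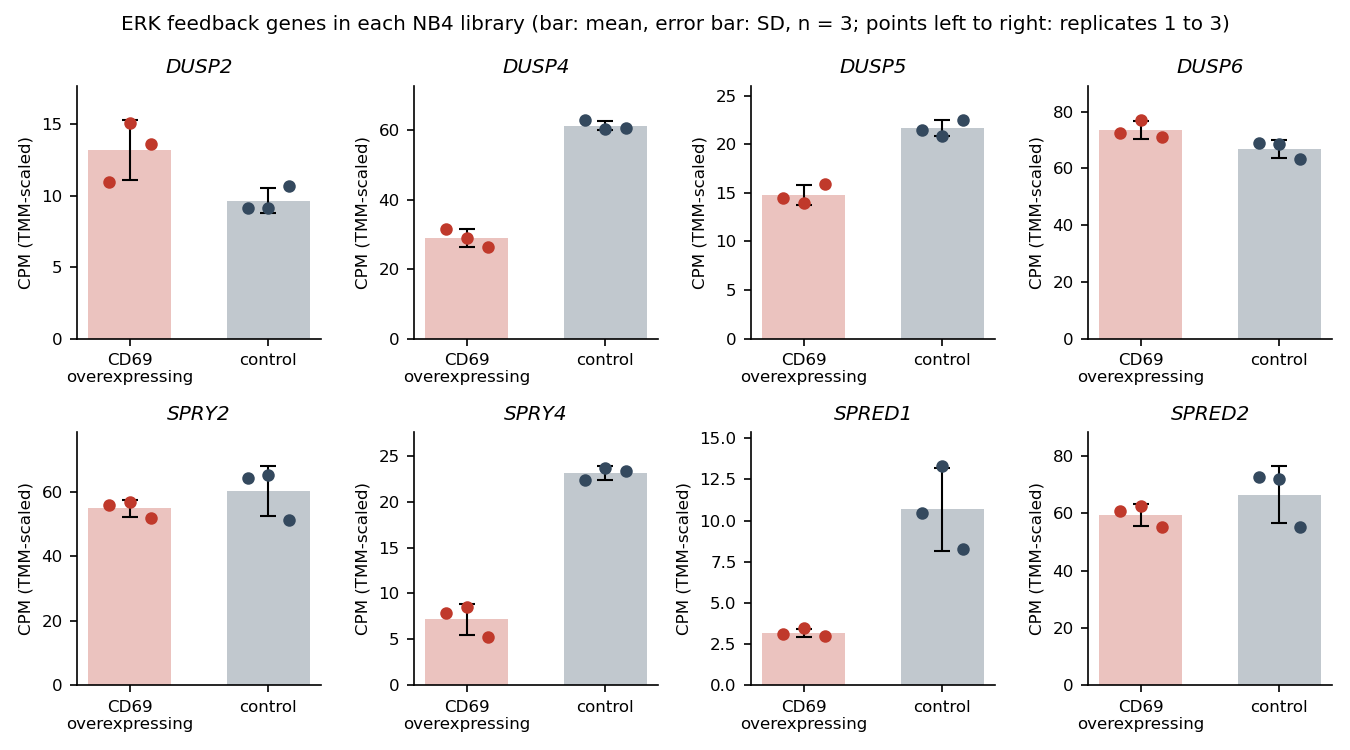
Level of each of the 8 ERK feedback genes (CPM with TMM scaling, axis from 0) in the 3 CD69-overexpressing libraries (red, left) and the 3 control libraries (blue-grey, right); bars are means and error bars SD. DUSP4, DUSP5, SPRY4 and SPRED1 were lower in all overexpressing libraries than in any control, while the groups overlap for SPRY2 and SPRED2, where control replicate 3 lies low.

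Among the phosphatases, DUSP4 showed the largest change. DUSP4 (ENSG00000120875, GRCh38 chromosome 8, 29333064 to 29350668, minus strand) encodes a nuclear phosphatase that acts on ERK and also on JNK and p38. It had 31.6, 28.98 and 26.3 CPM in overexpressing replicates 1, 2 and 3, against 63.1, 60.5 and 60.8 CPM in controls. The groups were far apart, and the 3 controls lay within 1.04 times of one another. The log2 fold change was -1.08 (SE 0.08, 95% interval -1.28 to -0.89, quasi-likelihood adjusted p = 0.000139), which left 47.1% of the control level.

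DUSP5 (ENSG00000138166, chromosome 10, 110497838 to 110511544, plus strand) encodes a nuclear phosphatase with a strong preference for ERK. It had 14.5, 13.9 and 15.9 CPM in overexpressing replicates, against 21.5, 20.9 and 22.5 CPM in controls, again without overlap. Its log2 fold change was -0.55 (SE 0.09, 95% interval -0.77 to -0.33, quasi-likelihood adjusted p = 0.0049). When only overexpressing replicate 1 was set against the controls, a setting added with the data in view in which only the controls give the spread, the value was -0.58 and the adjusted p 0.0986. The processed pseudogene DUSP5P1 held 107, 108 and 38 counts in overexpressing replicates and 66, 81 and 81 in controls, beside 786 to 814 and 1186 to 1262 for DUSP5 itself, so a small part of the DUSP5 counts is uncertain.

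DUSP6 and DUSP2 did not share the fall. DUSP6 (ENSG00000139318, chromosome 12, 89347232 to 89353271, minus strand), the cytoplasmic phosphatase most specific for ERK, had 72.4, 77.1 and 71.2 CPM in overexpressing replicates, against 69.0, 68.5 and 63.3 CPM in controls. All overexpressing libraries were above all controls, as for 23.0% of tested genes, but by little. The change was 0.14 on the log2 scale (SE 0.07, 95% interval -0.02 to 0.295, quasi-likelihood adjusted p = 0.192), so the interval reaches down to about no change and leaves out a fall of the size seen for DUSP4. An antisense gene covers 40.5% of the exon bases of DUSP6 on the other strand. It held 93 to 169 counts in overexpressing libraries and 100 to 127 in controls, against 3547 or more for DUSP6, and no source used here says whether counting used the strand.

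DUSP2 (ENSG00000158050, chromosome 2, 96143166 to 96145440, minus strand), a nuclear phosphatase induced in activated lymphocytes and myeloid cells, had 11.0, 15.1 and 13.7 CPM in overexpressing replicates, against 9.16, 9.13 and 10.7 CPM in controls. The groups did not overlap, but overexpressing replicate 1 was only just above control replicate 3. The log2 fold change was 0.45 (SE 0.15, quasi-likelihood adjusted p = 0.0645), and without overexpressing replicate 1 it was 0.56 (adjusted p = 0.0323). The B cell marker sums were highest in the same replicates 2 and 3, and their part in the DUSP2 value was not tested. Neighbouring genes were also higher: of 37 other coding genes of at least 5 CPM within 5 Mb of DUSP2, 22 were called higher and 1 lower, with a median log2 fold change of 0.34.

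The balance of DUSP4 and DUSP6 was also taken within each library. The log2 ratio of DUSP4 to DUSP6 counts was -1.20, -1.41 and -1.44 in overexpressing replicates 1, 2 and 3, against -0.13, -0.18 and -0.06 in controls. The difference was -1.23, and it does not depend on library scaling. The exact permutation test over libraries gave a two-sided p of 0.1, the smallest that 3 against 3 libraries allow. Every overexpressing library lay below all controls in DUSP4 and above them in DUSP6. Separation of the ratio was therefore fixed beforehand, and the test adds no support.

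In each of the Sprouty and Spred pairs, 1 gene fell strongly and the other did not pass the test. SPRY4 (ENSG00000187678, chromosome 5, 142310427 to 142326455, minus strand) encodes an inhibitor that acts between receptor and RAF. It had 7.82, 8.48 and 5.23 CPM in overexpressing replicates, against 22.3, 23.7 and 23.4 CPM in controls. The controls were tight, and replicate 3 was the lowest of the overexpressing libraries. On the log2 scale the change was -1.69 (SE 0.18, 95% interval -2.10 to -1.27, quasi-likelihood adjusted p = 0.000543), or 31.0% of the control level.

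SPRY2 (ENSG00000136158, chromosome 13, 80335976 to 80340951, minus strand), which binds the adaptor GRB2 and the ubiquitin ligase CBL, had 56.0, 56.8 and 51.8 CPM in overexpressing replicates, against 64.2, 65.1 and 51.3 CPM in controls. The groups overlapped through control replicate 3 alone. On the log2 scale the change was -0.13 (SE 0.10, 95% interval -0.37 to 0.11, quasi-likelihood adjusted p = 0.398), and without control replicate 3 it was -0.23 (adjusted p = 0.0325). The log2 ratio of SPRY4 to SPRY2 counts was -2.84, -2.74 and -3.31 in overexpressing replicates, against -1.52, -1.46 and -1.13 in controls (difference -1.60, exact permutation p = 0.1, two-sided, the smallest possible). With SPRY4 already far below all controls, this test adds no support to its fall.

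SPRED1 (ENSG00000166068, chromosome 15, 38252326 to 38357249, plus strand) encodes the protein that brings the RAS inactivator neurofibromin to the membrane. It had 3.09, 3.44 and 2.98 CPM in overexpressing replicates, against 10.5, 13.3 and 8.24 CPM in controls. The overexpressing libraries were close together at 152 to 194 counts, whereas the controls spread from 462 to 754 counts. The log2 fold change was -1.75 (SE 0.20, 95% interval -2.22 to -1.28, quasi-likelihood adjusted p = 0.000838), or 29.7% of the control level. Its chromosomal neighbourhood was lower as well. Of 67 other coding genes of at least 5 CPM within 5 Mb, 44 were called lower and 1 higher, with a median log2 fold change of -0.54 and quartiles of -0.62 and -0.30. The fall of SPRED1 was larger than that median, and the part of the region in it was not tested. Around DUSP4, DUSP5 and SPRY4 the neighbouring medians were -0.14, 0.05 and -0.07, against -0.01 over all 10248 such coding genes.

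SPRED2 (ENSG00000198369, chromosome 2, 65310851 to 65432637, minus strand), the paralogue of SPRED1, had 60.8, 62.6 and 55.3 CPM in overexpressing replicates, against 72.6, 71.9 and 55.2 CPM in controls. As for SPRY2, control replicate 3 was the low one. The log2 fold change was -0.16 (SE 0.12, 95% interval -0.43 to 0.11, quasi-likelihood adjusted p = 0.359), and -0.28 without control replicate 3 (adjusted p = 0.0261). Without that library, the count of feedback genes called lower was 6. Over the whole table, 2226 genes were called lower in that setting, against 1937 with all libraries.

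Promoter sequence is shown for these pairs because their members were called differently. RefSeq windows of 250 bases before to 50 after the annotated start (GRCh38.p14) were used for 6 of the 8 genes, 9 windows in all. The first listed for each of the 4 Sprouty and Spred genes is printed. Each is written 5′ to 3′ on the gene's strand, with matches to 6 searched motifs in capitals. The motifs, searched on both strands, were the ETS core CCGGAA, the CRE half-site TGACG, the AP-1 site TGANTCA, the Capicua site TGAATGAA, the EGR site GCGTGGGCG and the CArG box bound by SRF.
SPRY4 (fell), chr5:142324198-142324497, minus strand: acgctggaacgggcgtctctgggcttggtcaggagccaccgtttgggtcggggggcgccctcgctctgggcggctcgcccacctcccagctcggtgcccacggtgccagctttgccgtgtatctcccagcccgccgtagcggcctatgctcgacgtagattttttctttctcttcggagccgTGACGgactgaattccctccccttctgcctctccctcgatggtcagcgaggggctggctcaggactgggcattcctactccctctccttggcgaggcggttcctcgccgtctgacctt
SPRY2 (not called), chr13:80341077-80341376, minus strand: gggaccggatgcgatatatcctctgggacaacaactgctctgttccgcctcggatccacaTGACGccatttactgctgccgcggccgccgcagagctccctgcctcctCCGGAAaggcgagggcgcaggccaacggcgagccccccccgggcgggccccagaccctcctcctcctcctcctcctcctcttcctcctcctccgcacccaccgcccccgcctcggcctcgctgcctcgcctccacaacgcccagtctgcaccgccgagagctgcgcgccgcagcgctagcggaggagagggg
SPRED1 (fell), chr15:38252586-38252885, plus strand: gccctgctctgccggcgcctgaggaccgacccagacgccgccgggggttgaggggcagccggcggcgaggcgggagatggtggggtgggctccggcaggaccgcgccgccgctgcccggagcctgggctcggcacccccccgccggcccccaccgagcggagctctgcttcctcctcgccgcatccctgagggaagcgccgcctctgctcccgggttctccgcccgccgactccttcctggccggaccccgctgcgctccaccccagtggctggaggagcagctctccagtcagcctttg
SPRED2 (not called), chr2:65432550-65432849, minus strand: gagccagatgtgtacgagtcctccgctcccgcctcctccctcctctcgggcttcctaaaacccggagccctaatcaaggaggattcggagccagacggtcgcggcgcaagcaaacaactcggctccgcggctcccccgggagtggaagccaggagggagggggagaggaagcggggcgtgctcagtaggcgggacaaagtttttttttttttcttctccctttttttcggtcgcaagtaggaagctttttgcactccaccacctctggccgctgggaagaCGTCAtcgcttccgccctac

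The SPRY4 and SPRED2 windows each held 1 CRE half-site, a motif found in 24.6% of the 35116 human promoter windows of this length. The SPRY2 window held 1 CRE half-site and 1 ETS core, the second found in 17.2% of windows. The SPRED1 window, with 76.3% G and C, held none of the 6 motifs. Neither did the windows of DUSP6 and DUSP2. Among the 9 windows used, which leave out DUSP4 and DUSP5, AP-1 sites occurred only in a second SPRED2 window, 2 of them. They were found in 7.71% of all windows. A match in these letters is a description and not a bound site, and its absence says nothing about the factor. Which of several annotated starts was used in NB4 cells cannot be read from counts per gene.

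Scaled by exon length, the order of levels also changed between groups. In overexpressing cells SPRY2 was highest at 18.1 ± 0.87 CPM per kb of exon (SD, n = 3), followed by DUSP6 (15.9 ± 0.67), SPRED2 (11.6 ± 0.74), DUSP2 (6.85 ± 1.08), DUSP5 (5.66 ± 0.39), DUSP4 (3.99 ± 0.37), SPRY4 (1.09 ± 0.26) and SPRED1 (0.384 ± 0.029), all in CPM per kb. In controls the order was SPRY2 (19.8 ± 2.54), DUSP6 (14.4 ± 0.68), SPRED2 (12.9 ± 1.91), DUSP4 (8.47 ± 0.20), DUSP5 (8.28 ± 0.31), DUSP2 (5.00 ± 0.47), SPRY4 (3.53 ± 0.11) and SPRED1 (1.29 ± 0.31). DUSP4 thus stood above DUSP2 in controls and below it in overexpressing cells. Neighbours whose libraries overlapped were DUSP2 and DUSP5 in overexpressing cells, and in controls SPRED2 with DUSP6 and DUSP5 with DUSP4.

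**Figure D2:**
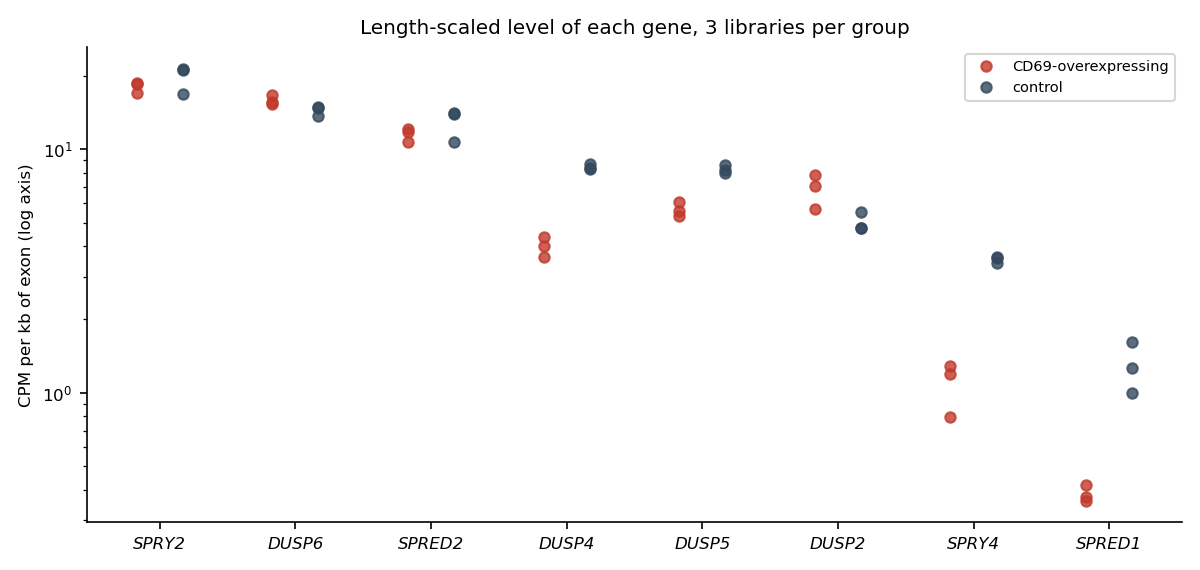
Level of each gene per kilobase of annotated exon (CPM per kb, log axis) in each CD69-overexpressing (red, left of each pair) and control library (blue-grey, right). SPRY2, DUSP6 and SPRED2 were the 3 highest genes in both groups, and DUSP4, SPRY4 and SPRED1 lay clearly lower in overexpressing cells.

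The 4 falls were present in each overexpressing library. Against the control mean, replicates 1, 2 and 3 were at -0.96, -1.08 and -1.23 for DUSP4, at -0.58, -0.64 and -0.44 for DUSP5, at -1.57, -1.45 and -2.15 for SPRY4 and at -1.79, -1.63 and -1.84 for SPRED1 on the log2 scale. SPRY4 was lowest in replicate 3, and DUSP4 was least reduced in replicate 1. The marker sums that set replicate 1 apart from replicates 2 and 3 stand beside these values in the plot of each library against the control mean, and their part in the falls was not tested.

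**Figure D3:**
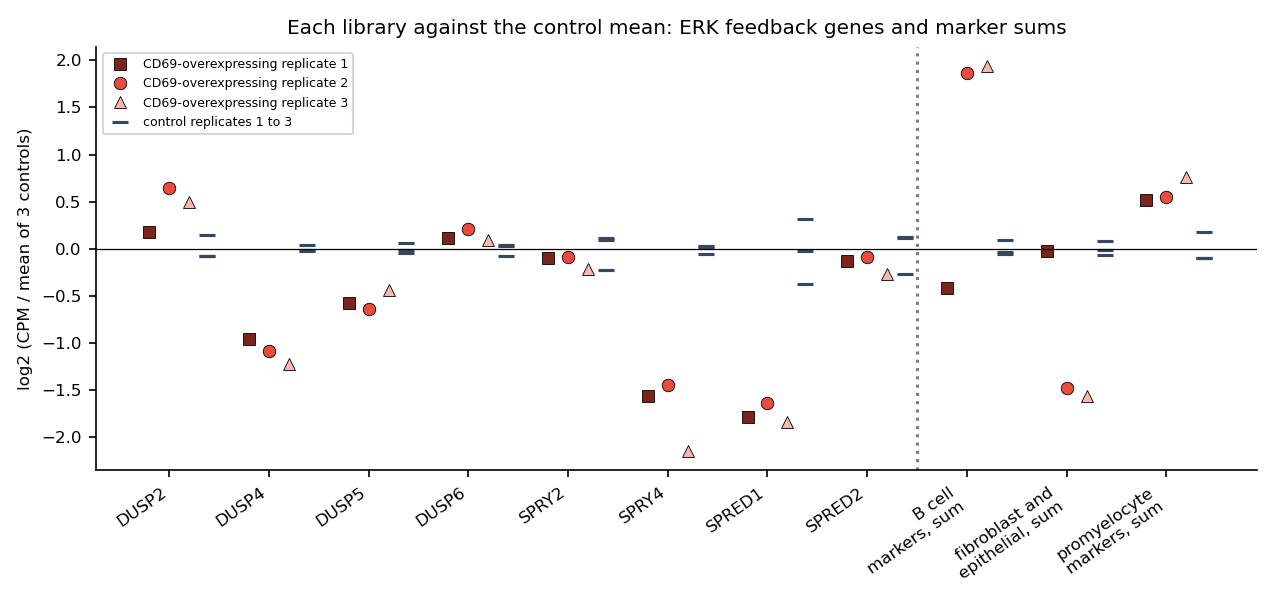
Log2 ratio of each library to the mean of the 3 controls for the 8 feedback genes (left of the dotted line) and for summed marker genes of B cells, of fibroblasts and epithelium, and of promyelocytes (right). Red symbols are the 3 CD69-overexpressing libraries and dark dashes the controls; the marker sums of B cells and of fibroblasts and epithelium split replicate 1 from replicates 2 and 3, and DUSP4, DUSP5, SPRY4 and SPRED1 were below the controls in all 3.

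Genes whose profile over the 6 libraries was most like each fallen gene were found by the root mean square difference of centred log2 CPM. For DUSP4 these were NLRP12 (difference 0.0385) and TMEM52B (0.054), for DUSP5 EEF1E1 (0.019) and TMEM18 (0.0221), for SPRY4 ANKRD55 (0.134) and S100A9 (0.147), and for SPRED1 TRIM71 (0.128) and MGA (0.139). MGA lies on chromosome 15, within 5 Mb of SPRED1, and had a log2 fold change of -1.63 (SE 0.12).

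Among other phosphatases and Sprouty relatives both directions occurred. Of 13 further family members tested, 3 rose, 1 fell and 9 did not pass (median log2 fold change -0.04). Over all tested genes, 14.2% were called higher and 9.94% lower. DUSP3, a small phosphatase that acts on ERK and JNK, was 78.9 ± 3.56 CPM in overexpressing cells and 63.2 ± 2.59 CPM in controls (SD, n = 3), a log2 fold change of 0.32. DUSP16, which prefers JNK and p38, rose by 0.44, and SPRY3 rose by 1.02 at under 3 CPM. DUSP14 fell by 0.33. None of these calls held on leaving out each library in turn. That of DUSP3 was lost without overexpressing replicate 1 or 2 or control replicate 1 (quasi-likelihood adjusted p = 0.053 to 0.0583), that of DUSP16 without overexpressing replicate 2 or control replicate 1 (0.0561 to 0.076), that of SPRY3 without any library other than overexpressing replicate 1 (0.0854 to 0.176) and that of DUSP14 without any 1 library (0.0545 to 0.145). DUSP1, a nuclear phosphatase induced by stress, had a log2 fold change of -0.01 (SE 0.16).

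Genes of the kinase cascade changed in both directions. Of 22 core genes, 5 rose and 2 fell (median 0.04), where 14.2% and 9.94% of all tested genes were called higher and lower. MAPK3, which encodes ERK1, was 34.6 ± 3.07 CPM in overexpressing cells and 19.7 ± 0.42 CPM in controls (log2 fold change 0.81, SE 0.09). MAP2K1, which encodes MEK1, was 73.8 ± 2.23 CPM in overexpressing cells and 58.1 ± 1.39 CPM in controls (0.34, SE 0.06). The small GTPase HRAS and the exchange factor RASGRP2 fell by 0.46 and 0.33. The HRAS call was lost without any library other than control replicate 1 (quasi-likelihood adjusted p = 0.0522 to 0.115), and that of RASGRP2 without any 1 overexpressing library (0.0523 to 0.0788). SOS2 and RPS6KA3 also rose and were named after their values were seen. NRAS, BRAF and MAP2K2 did not pass the test.

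Of 18 other RAS and RAF inhibitors and Sprouty partners, 3 rose and 4 fell (median 0.20), beside 14.2% and 9.94% of all tested genes. DAB2IP, a RAS GTPase-activating protein, was 11.4 ± 0.39 CPM in overexpressing cells and 37.7 ± 2.36 CPM in controls (SD, n = 3), a log2 fold change of -1.72 (SE 0.09, quasi-likelihood adjusted p = 2.45e-05). RASA1 and RASAL3, of the same enzyme class, rose by 0.63 and 0.54. LZTR1, an adaptor for RAS ubiquitination, rose by 0.37, the receptor inhibitor ERRFI1 fell by 0.71 and RASA3 fell by 0.27. A same-strand transcript shares 34.6% of the exon bases of LZTR1, and CCNH covers 14.7% of those of RASA1 on the other strand. LZTR1 was not called without overexpressing replicate 1 or 2 or control replicate 1 or 2 (adjusted p = 0.0537 to 0.0715). ERRFI1 and RASA3 were not called without overexpressing replicate 2 or 3 or control replicate 1 or 2 (0.087 to 0.11 and 0.0887 to 0.122). SIAH2 was the fourth that fell and was named after its values were seen. NF1, the partner of SPRED1, had a log2 fold change of 0.40 (SE 0.18, adjusted p = 0.15).

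Other transcripts that follow ERK activity changed in both directions. Of 20 such genes, 6 rose and 2 fell (median -0.08), where 14.2% and 9.94% of all tested genes were called higher and lower. Every overexpressing library lay above every control in 8 of the 20 and below in 4, beside 23.0% and 19.3% of tested genes. EGR1 was 71.3 ± 3.97 CPM in overexpressing cells and 11.9 ± 2.05 CPM in controls (log2 fold change 2.58, SE 0.13), and FOS and JUNB rose by 0.99 and 0.75. The other rises, named after their values were seen, were EGR3, IER2 and ZFP36. IER3, an immediate early gene of stress and survival, was 13.8, 8.39 and 10.9 CPM in overexpressing replicates 1, 2 and 3, against 20.7, 22.9 and 21.8 CPM in controls (-0.98, SE 0.17). The ETS factor ETV4 fell by 0.37, a call lost without any 1 overexpressing library or control replicate 2 (quasi-likelihood adjusted p = 0.0518 to 0.0878). An antisense gene covers 26.5% of the exon bases of IER3, and another covers 30.8% of those of IER2. HOOK2 covers 14.2% of the exon bases of JUNB on the other strand. The counts of IER3, IER2 and JUNB are therefore uncertain in the same way as those of DUSP6. ETV5, CCND1, PHLDA1 and MYC had log2 fold changes of -0.17, -0.75, -0.43 and 0.01 and did not pass the test. CCND1 was 9.12, 4.70 and 4.58 CPM in overexpressing replicates 1, 2 and 3, against 8.80, 12.2 and 9.92 CPM in controls, so replicate 1 lay within the controls.

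**Figure D4:**
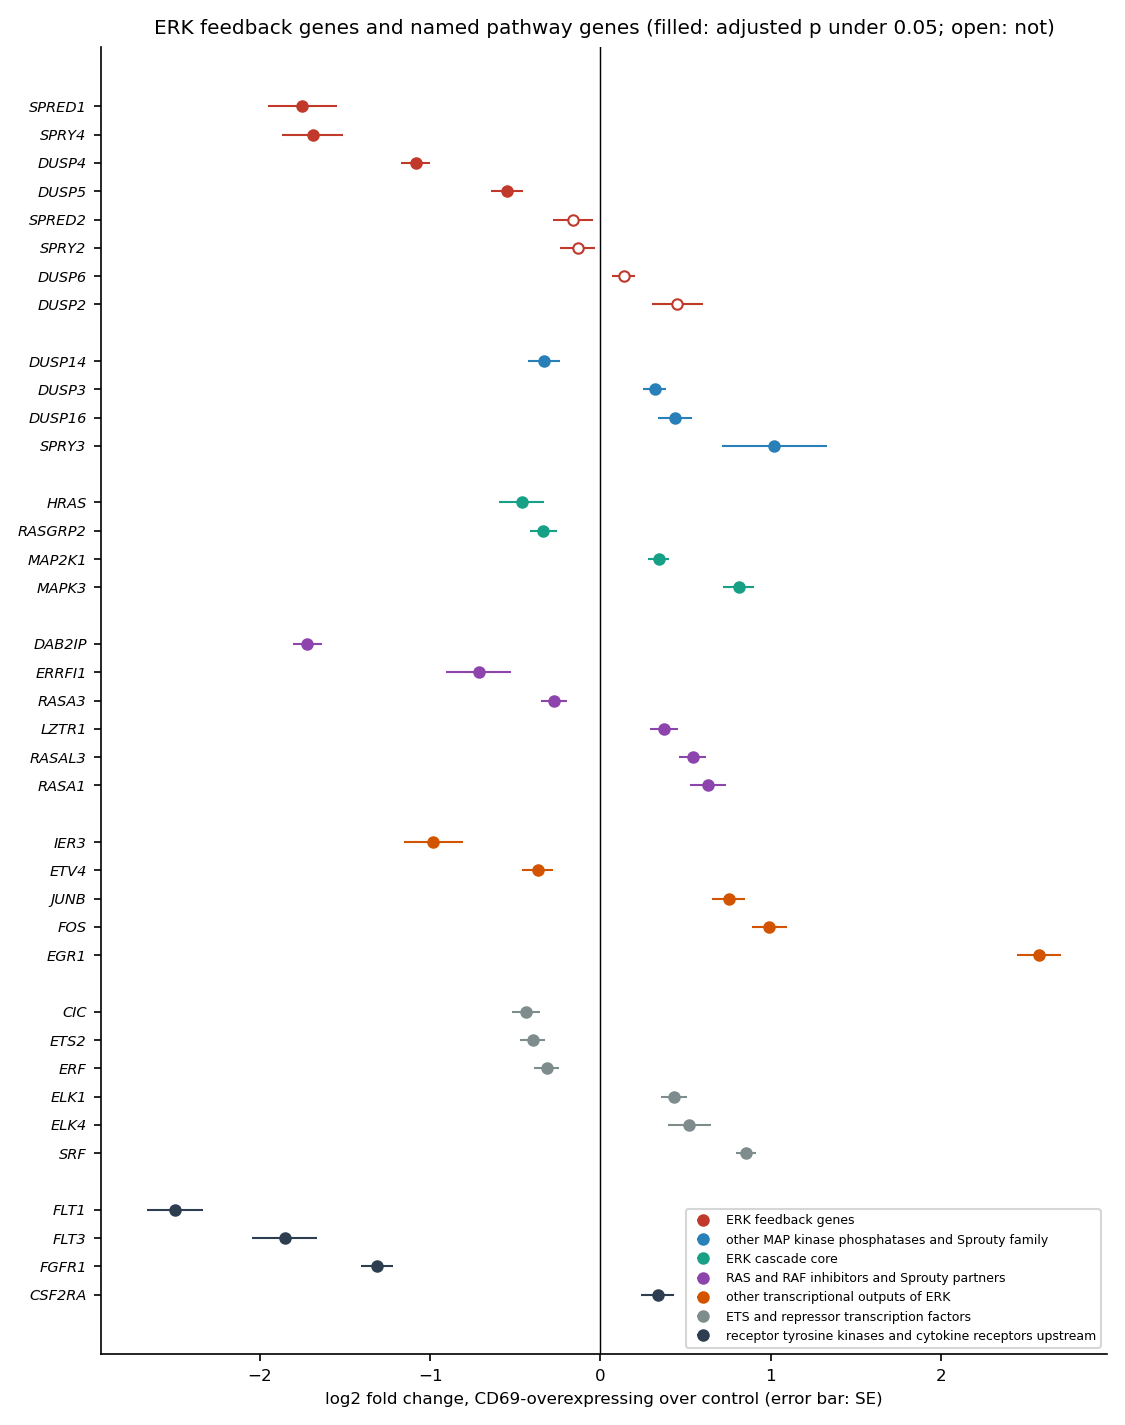
Log2 fold change (CD69-overexpressing over control, error bars SE from the edgeR fit) of the 8 feedback genes in red and of named genes of the 6 pathway lists, 1 colour per list. Filled points passed an adjusted p of 0.05. SPRED1, SPRY4, DUSP4 and DUSP5 lie left of zero. Of the named outputs of ERK, EGR1, FOS and JUNB lie to the right and IER3 and ETV4 to the left.

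Transcription factors that act on such promoters changed in both directions, with 4 higher and 3 lower of 14 (median -0.03). The shares over all tested genes were 14.2% higher and 9.94% lower. SRF, which binds the CArG box, was 151 ± 3.51 CPM in overexpressing cells and 83.4 ± 2.38 CPM in controls (log2 fold change 0.86, SE 0.06), and its partners ELK1 and ELK4 rose by 0.43 and 0.52. FLI1, the fourth that rose, was named after its values were seen. The ELK4 call was lost without overexpressing replicate 1 or 2 (adjusted p = 0.052 and 0.0705). CIC, a repressor relieved by ERK, and the activator ETS2 fell by 0.44 and 0.40. The repressor ERF fell by 0.32, which was not called without overexpressing replicate 1 or 2 or control replicate 2 (0.0628 to 0.0744).

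Receptors at the top of the pathway were lower more than higher, with 4 lower and 1 higher of 14 tested (median -0.16). Among all tested genes, 9.94% were called lower and 14.2% higher. FLT1, the VEGF receptor type found on endothelium and monocytes, was 1.84 ± 0.06 CPM in overexpressing cells and 10.4 ± 1.27 CPM in controls (log2 fold change -2.50, SE 0.16). FLT3, a receptor of haematopoietic progenitors, was 3.32 ± 0.74 CPM in overexpressing cells and 12.0 ± 0.33 CPM in controls (-1.85, SE 0.19). FGFR1, a receptor for fibroblast growth factors, was 11.0 ± 0.70 CPM in overexpressing cells and 27.4 ± 0.88 CPM in controls (-1.31, SE 0.09). KIT, the fourth, was named after its values were seen and had a log2 fold change of -2.25 (SE 0.30). CSF2RA, a chain of the GM-CSF receptor, rose by 0.34, a call lost without any 1 library (quasi-likelihood adjusted p = 0.0623 to 0.138).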

How the data were processed

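Poly(A) RNA of 6 NB4 libraries was sequenced in pairs from strand-specific libraries, per the labels' protocols. The authors deposited 1 table of counts per Ensembl gene, treated here as estimated counts. The values were whole, so rounding changed nothing. FastQC, fastp, STAR and featureCounts (Subread) were used with GRCh38, per the submitters' processing notes. Tool versions, the annotation release, the use of strand and whether reads or fragments were counted are not given in the sources used here. In control replicate 1, 1496 genes held exactly 4 counts and 777 held 3, so 1 fragment may stand for about 4 counts and the depth may be lower than the totals.

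Symbols came from a gene name table, and positions, exon lengths and exon overlaps from GENCODE 29 (GRCh38). Genes passing filterByExpr were scaled by TMM and tested with edgeR 4.0.16 (glmQLFit and glmQLFTest, R 4.3.3), two-sided, adjusted over all 19485 genes at 0.05. SE is the absolute log2 fold change over the square root of F, and 95% intervals use the fit's degrees of freedom. The likeness measure used genes of at least 5 mean CPM and a pseudocount of 0.5 CPM. On simulated counts for 19485 genes the test called 70% of 50 genes at a log2 change of 1 and 32% of 50 at 0.5. A far smaller share of genes was changed there than the 24.1% called in the data. The changed genes were also drawn from those above 50 counts. These shares are therefore not the sensitivity of the real comparison. Figures used matplotlib 3.10.9.

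The genes and lists were chosen with earlier results of these data known. The text names the 8 genes, CD69, up to 3 genes per list and direction by smallest p, and the 2 nearest profiles of each fallen gene. Single values of some listed genes are not reported here. The comparison with neighbouring genes was added after seeing the data. Alternatives were RLE or no scaling, no filter, 50 counts in 3 libraries, DESeq2 1.42.0, the replicate number as a block, counts divided by 4 and each library left out. No 2 libraries agreed within sampling noise, judged by chi-square per degree of freedom on counts already divided by 4 (2.51 or more for every pair).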

Additional observations from a re-analysis of the deposited data

How the results depend on the processing

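The falls of DUSP4, DUSP5, SPRY4 and SPRED1 kept direction and call under RLE or no scaling, both other filters, DESeq2, the block, counts divided by 4 and each library left out, with log2 fold changes of -1.16 to -1.02, -0.61 to -0.51, -1.83 to -1.51 and -1.90 to -1.58 on leaving out each library in turn. The count of feedback genes called lower was 4 to 6 over libraries left out, 6 without control replicate 3. Genes called lower over the whole table numbered 1137 to 2226 over libraries left out, 2226 without control replicate 3, against 1937 with all libraries. The count called higher was 0, and 0 to 1 over libraries left out, and was 1 (DUSP2) with the filter of 50 counts in 3 libraries (log2 fold change 0.46), with DESeq2 (0.44) and with counts divided by 4 (0.45). DUSP2 ranged from 0.34 to 0.56, SPRY2 from -0.232 to -0.086 and SPRED2 from -0.276 to -0.096 over libraries left out. The cause of these changes was not tested. With overexpressing replicate 1 alone against the controls, chosen after seeing the data, DUSP5 was -0.58 and not called, and 1177 genes changed over the whole table. There fewer libraries were compared, and the lone library is assumed to vary like the controls. Genes changed numbered 2920 (without overexpressing replicate 2) to 5143 (without control replicate 3) over libraries left out, against 4704 with all libraries. The DUSP4 to DUSP6 and SPRY4 to SPRY2 differences ranged from -1.30 to -1.18 and from -1.71 to -1.42.

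With the replicate number as a block, 5863 genes changed and 4 feedback genes were lower. Deviations of same-numbered libraries, over all tested genes, correlated by -0.03, 0.05 and 0.07, so the numbers were not taken to pair the libraries. With the block, however, the SE of SPRY2 was 0.064, against 0.103 without it, and that of SPRED2 0.066, against 0.115. A shared effect of the replicate number on single genes was not tested. The block changed no call among the 8 genes, and among the other named genes only DUSP14 lost its call (adjusted p = 0.0529). SPRED1 rests on 152 to 194 counts in overexpressing libraries, the lowest of the 8 genes, and perhaps on fewer fragments.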
